A study of Homo sapiens with 12 samples.

Results

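A set of 10 actin-filament genes was followed in a cabozantinib-resistant renal carcinoma line and in the line it came from. They are TAGLN, TAGLN2, ACTA2, ACTG2, CNN1, CNN2, TPM1, TPM2, CALD1 and MYL9, 10 of the 20114 gene rows in the deposited RNA tables, taken by symbol. Each belongs to the smooth-muscle type of actin cytoskeleton or is the close relative of a gene that does. The set was drawn up around TAGLN, whose lower level in the resistant line was already known from these data. The values of TAGLN are therefore a description and carry no test. The other genes and all gene lists used below were also chosen with earlier results of these data known. Their adjusted p-values and counts are to be read with that limit. The parent is Caki-1, a long-used line from a human kidney cancer. The resistant line was selected from it in McCoy's 5A medium with cabozantinib, a kinase inhibitor of MET, AXL and the VEGF receptors, from 5 µM up to 20 µM over 2 months, and was then kept in 10 µM. The parent, called wild-type in the labels, was kept in RPMI medium, so drug, selection and medium differ together between the lines. The resistant cells are 1 derived line, and the labels do not say whether it is a clone or whether replicates were separate cultures, so the p-values reflect the spread between these libraries alone, which may be technical. RNA was sequenced from 2 resistant and 2 wild-type libraries. Peaks of H3K27ac, a histone mark of active promoters and enhancers, were deposited for 2 resistant and 2 wild-type libraries.

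Smooth muscle contracts when myosin pulls on actin filaments. ACTA2 and ACTG2 are the smooth-muscle actins of vessels and of gut. TPM1 and TPM2 encode tropomyosins, which lie along the filament. CALD1 (caldesmon) and CNN1 (calponin) bind the filament and restrain myosin, MYL9 is the regulatory light chain of myosin, and TAGLN (transgelin, SM22-alpha) bundles filaments. CNN2 and TAGLN2 are relatives found in many cell types. Epithelial and carcinoma cells can also express several of these genes, and many are textbook targets of the transcription factor SRF with its MRTF coactivators, which binds a DNA element called the CArG box.

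Promoter windows of the RefSeq table (GRCh38.p14) were found for 8 of the 10 genes, in 15 windows of 250 bases before to 50 bases after a start. TAGLN and MYL9 were not matched. A CArG box was found in 2 of these windows and, allowing 1 mismatch in the inner 6 bases, in another 2, against 1.29% and 6.94% of all 35116 windows. The 250 bases before the start are printed for ACTG2 (chr2:73892758-73893007, plus strand), ACTA2 (chr10:88952774-88953023, minus strand) and CNN2 (chr19:1026358-1026607, plus strand). All carry boxes there. CALD1 also has a window with a mismatched box, but it is not printed. ACTG2 was too low to test in RNA, and ACTA2, CNN2 and CALD1 did not pass. Without a TAGLN window these genes cannot be set against TAGLN. Capitals mark the boxes, which are exact in ACTG2 and CNN2 and have a mismatch in ACTA2.
ACTG2: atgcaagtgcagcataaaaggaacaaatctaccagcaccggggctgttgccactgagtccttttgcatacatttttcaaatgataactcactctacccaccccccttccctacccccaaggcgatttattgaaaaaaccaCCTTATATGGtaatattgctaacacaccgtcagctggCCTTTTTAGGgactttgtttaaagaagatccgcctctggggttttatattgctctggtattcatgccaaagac
ACTA2: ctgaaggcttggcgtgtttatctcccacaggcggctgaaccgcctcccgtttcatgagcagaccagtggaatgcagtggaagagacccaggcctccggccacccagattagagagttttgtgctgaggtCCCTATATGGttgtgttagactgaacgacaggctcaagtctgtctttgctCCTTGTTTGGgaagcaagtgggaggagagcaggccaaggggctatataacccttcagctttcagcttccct
CNN2: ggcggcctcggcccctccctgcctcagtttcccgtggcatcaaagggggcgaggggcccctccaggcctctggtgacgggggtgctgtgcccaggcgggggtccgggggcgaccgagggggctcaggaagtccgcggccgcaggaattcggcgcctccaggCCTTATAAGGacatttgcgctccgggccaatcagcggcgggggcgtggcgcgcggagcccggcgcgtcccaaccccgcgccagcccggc
The other window with a mismatched box was 1 of the 4 of CALD1, at -26 from its start. The motif GGAATG, bound by TEAD factors, was present on either strand in 3 of the 15 windows (14.0% of all windows), in CALD1 and ACTA2. TATAAA was present on either strand in 2 (11.5% of all), in ACTG2 and CALD1. A CArG box can itself contain TATAAA. These matches describe letters only.

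The RNA libraries held about 14664700 and 12851400 estimated counts in the resistant line and 10605100 and 10584100 in the wild-type line. Replicates were further apart in the resistant line, where counts differed by a chi-square of 46.4 per gene on average, against 1.93 in the wild-type line. A list of 13 renal and carcinoma markers was examined, which describes the cells but cannot establish the identity of a line. Of these, 10 and 11 stood at a TPM (a level scaled for transcript length and library size) of 1 or more in the resistant libraries. In the wild-type libraries 10 and 10 did. PAX8, the kidney lineage factor, was at 133 and 133 TPM in the resistant libraries and 210.2 and 205 TPM in the wild-type libraries. PAX2 was at 0 in all 4. CA9, another of the list, had 0 and 0.9 TPM in the resistant libraries and 0 and 0.18 TPM in the wild-type libraries. The markers that define differentiated smooth muscle were at or near 0: MYOCD, the master coactivator, was at 0 in all 4 libraries, and MYH11, the smooth-muscle myosin, and DES, desmin, had at most 0.08 and 0.22 TPM. On the same list of renal markers LHX1 and CDH16 rose, KRT19 fell and 8 of 11 tested did not pass (log2 fold changes 4.32 ± 0.56, 1.51 ± 0.31 and -4.64 ± 0.40 SE, edgeR adjusted p = 0.0148, 0.0459 and 0.00566). Over all tested genes 6.37% were called, 2.96% higher and 3.41% lower. CDH16 was past the threshold in 9 of 16 alternatives, and its call ended, among others, with limma-voom (adjusted p = 0.0534) and without wild-type replicate 1 (0.155). In such bulk libraries fewer cells that express a gene and less RNA per cell cannot be told apart.

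**Figure D1:**
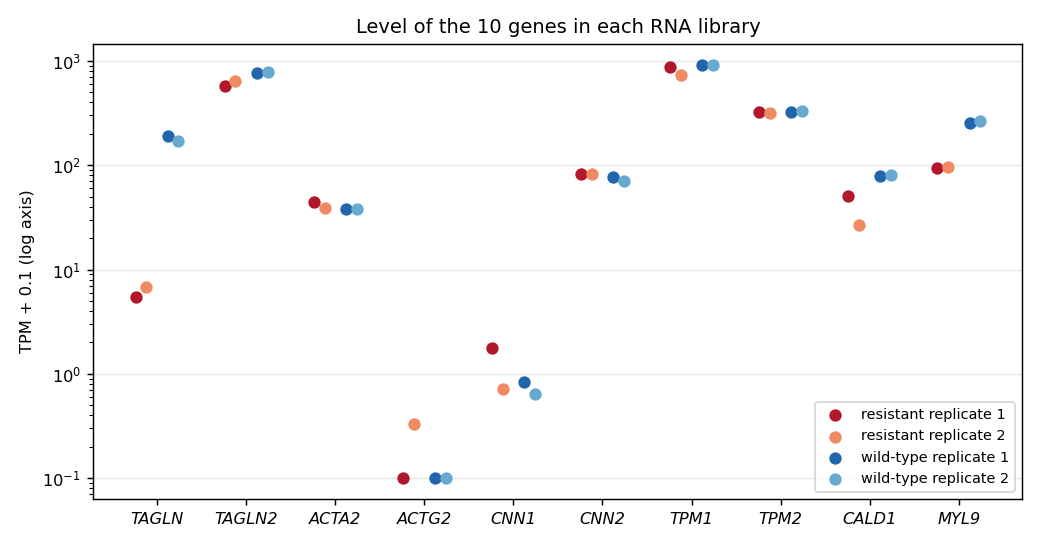
Level of each of the 10 genes in TPM + 0.1, on a log axis, with 1 point per RNA library (red shades resistant, blue shades wild-type). TAGLN falls to 5.34 and 6.74 TPM in the resistant libraries, against 190 and 170 TPM in the wild-type libraries, whereas TPM1, TPM2, ACTA2 and CNN2 lie close together across the 4 libraries.

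TAGLN was a minor transcript of the resistant line and a well-expressed gene of the wild-type line. It had 5.34 and 6.74 TPM in the resistant libraries, against 190 and 170 TPM in the wild-type libraries. In estimated counts these were 51 and 90 in the resistant libraries and 1220 and 1101 in the wild-type libraries. Both resistant libraries were far below both wild-type ones, and the groups did not overlap. By rank TAGLN was transcript 9296 and 7805 from the top in the resistant libraries and 642 and 705 in the wild-type libraries. As normalised read counts relative to library size (CPM, scaled by TMM), it averaged 5.14 ± 2.61 CPM in the resistant line and 113 ± 8.53 CPM in the wild-type line (SD, n = 2 each), a mean 21.9 times higher in the wild-type line. The log2 fold change was -4.47 ± 0.35 (SE of the edgeR fit), the 43rd lowest of 12792 genes tested. On the TPM scale the wild-type mean was 29.8 times the resistant mean. The gap between the scales goes in part with the length RSEM assigned to TAGLN. That length was seen as the reads of TAGLN per TPM unit, relative to the median gene of the library. That ratio was 0.341 and 0.473 in the resistant libraries and 0.326 and 0.323 in the wild-type libraries. Resistant replicate 2 thus stood at 1.46 times the wild-type mean, a higher ratio than that of 99.3% of the 11437 genes with 20 or more counts in every library, on 90 counts of TAGLN. Resistant replicate 1 stood at 1.05 times that mean. Which TAGLN transcripts carry this difference cannot be read from gene-level tables.

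TAGLN2, the broadly expressed relative of TAGLN, stayed among the 219 most abundant transcripts in every library. It had 568 and 647 TPM in the resistant libraries, against 764 and 775 TPM in the wild-type libraries. The groups did not overlap, yet the resistant libraries were 0.49 apart on the log2 CPM scale and the fitted difference was small (log2 fold change -0.28 ± 0.20 SE, edgeR quasi-likelihood adjusted p = 0.406). Without resistant replicate 2 the fold change was -0.55, and without resistant replicate 1 it was -0.05. With length offsets TAGLN2 passed, at -0.44 (adjusted p = 0.0403). TAGLN3, the neuronal member of the family, had at most 4.34 TPM in any library. As a share of the summed TPM of these 3 transgelins, TAGLN made up 0.929% and 1.02% in the resistant libraries and 19.9% and 17.98% in the wild-type libraries. The transgelin mRNA of the resistant line was thus nearly all TAGLN2.

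Of the smooth-muscle actins ACTA2 did not pass the test and ACTG2 was too low to test. ACTA2, alpha smooth-muscle actin and the standard marker of myofibroblasts, had 44.0 and 38.7 TPM in the resistant libraries, against 37.8 and 38.0 TPM in the wild-type libraries. In CPM both resistant libraries were slightly above both wild-type ones, at 45.0 ± 2.08 CPM in the resistant line and 40.0 ± 2.60 CPM in the wild-type line (SD, n = 2 each). The difference did not pass (log2 fold change 0.17 ± 0.15 SE, edgeR adjusted p = 0.517), and it kept its sign over the 16 alternatives, from 0.03 to 0.25, with 0 of them past the threshold. ACTG2, gamma smooth-muscle actin, was not detectable at this depth: it had 0 and 3 counts in the resistant libraries and 0 and 0 in the wild-type libraries. The cytoskeletal actins ACTB and ACTG1 carried nearly all actin mRNA. ACTG1 stood at 3568 ± 120.2 CPM in the resistant line and 5870 ± 116 CPM in the wild-type line (SD, n = 2 each), and fell (log2 fold change -0.72 ± 0.15 SE, edgeR adjusted p = 0.0482). Leaving out wild-type replicate 1 (adjusted p = 0.596) or wild-type replicate 2 (0.562) ended the call, and it was also missed on the TPM scale (0.0551 to 0.132) and with limma-voom (0.0553), and it held in 8 of 16 alternatives. ACTB stood at 4439 ± 549 CPM in the resistant line and 3186 ± 56.3 CPM in the wild-type line and did not pass (log2 fold change 0.48 ± 0.16 SE, edgeR adjusted p = 0.135). Over the 16 alternatives the log2 fold change of ACTB ran from 0.34 to 0.60. ACTA2 and ACTG2 together made up 0.610% and 0.637% of the TPM of 6 actins in the resistant libraries and 0.442% and 0.450% in the wild-type libraries. Actin genes are nearly alike in sequence, and how reads were divided among them was set by RSEM, so these values are uncertain, and ACTA2 also overlaps its antisense gene and FAS.

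**Figure D2:**
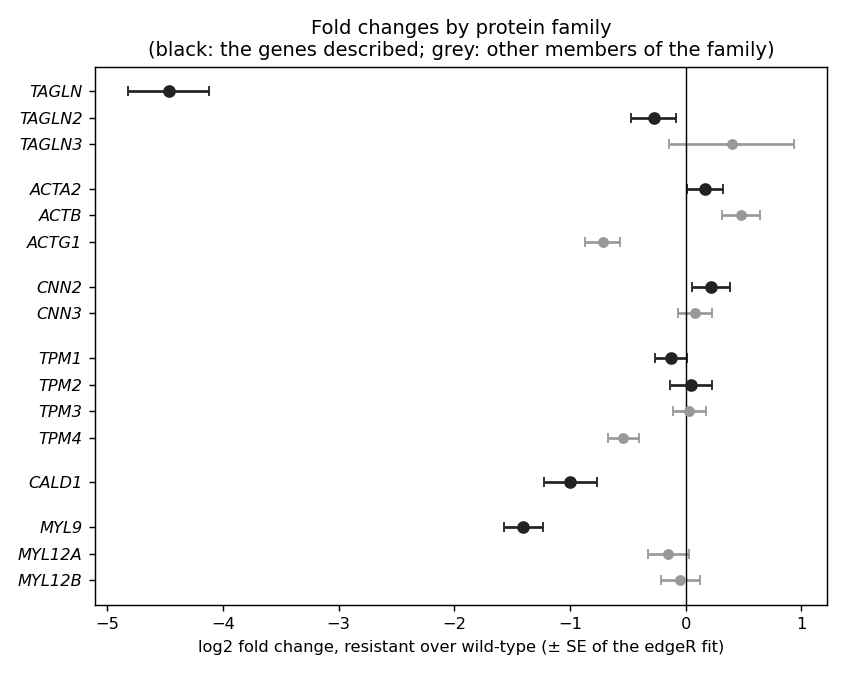
Log2 fold change of the resistant over the wild-type line, with the SE of the edgeR fit, for tested genes grouped by protein family (black, 8 of the 10 genes; grey, other members of the same families). TAGLN at -4.47, MYL9 at -1.40 and CALD1 at -0.998 lie lowest, and the other black points lie between -0.28 and 0.22.

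Neither calponin that could be tested passed, and the smooth-muscle form was near the limit of detection. CNN1, the calponin of differentiated smooth muscle, had 1.68 and 0.61 TPM in the resistant libraries, against 0.73 and 0.54 TPM in the wild-type libraries. These rest on 26 and 6 counts in the resistant libraries and 8 and 6 in the wild-type libraries, the groups overlapped, and CNN1 was under the count filter and was not tested. CNN2, the widely expressed calponin, had 81.6 and 81.6 TPM in the resistant libraries and 76.5 and 70.7 TPM in the wild-type libraries. Its CPM values overlapped between lines, and it did not pass (log2 fold change 0.22 ± 0.17 SE, edgeR adjusted p = 0.44). Without resistant replicate 1 the log2 fold change of CNN2 was 0.37, and without resistant replicate 2 it was 0.04. CNN3, an acidic calponin, had a log2 fold change of 0.08 ± 0.15 (SE, edgeR adjusted p = 0.752). CNN1 and CNN2 together held 66.0% and 70.3% of calponin TPM in the resistant libraries and 66.2% and 66.2% in the wild-type libraries.

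TPM1 had the highest TPM of the 10 genes in all 4 libraries, and TPM2 the third highest, after TAGLN2. TPM1 had 871 and 739 TPM in the resistant libraries, against 919 and 917 TPM in the wild-type libraries, and ranked between 149 and 182 from the top. TPM2 had 322 and 317 TPM in the resistant libraries, against 325 and 330.2 TPM in the wild-type libraries. Neither passed, with log2 fold changes of -0.13 ± 0.14 (SE, edgeR adjusted p = 0.598) for TPM1 and 0.04 ± 0.18 (adjusted p = 0.895) for TPM2. The sign of TPM2 turned with the scaling, to -0.04 on TPM and -0.14 with length offsets. It also turned with the library: leaving out resistant replicate 1 gave 0.24 and leaving out resistant replicate 2 gave -0.19. For TPM1 the log2 fold change was -0.09 without resistant replicate 1 and -0.17 without resistant replicate 2. Of the relatives that form cytoskeletal tropomyosins, TPM3 had a log2 fold change of 0.03 ± 0.14 (SE, adjusted p = 0.904) and TPM4 of -0.54 ± 0.14 (adjusted p = 0.074). Over the 16 alternatives the log2 fold change of TPM4 ran from -0.59 to -0.46. TPM1 and TPM2 held 70.2% and 70.6% of tropomyosin TPM in the resistant libraries and 69.5% and 69.5% in the wild-type libraries. Muscle and non-muscle forms of these genes arise by splicing, and gene-level tables do not separate them.

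CALD1, caldesmon, was lower in both resistant libraries, but to unequal degrees. It had 50.9 and 26.6 TPM in the resistant libraries, against 77.9 and 79.9 TPM in the wild-type libraries. The wild-type pair was close and the resistant pair far apart, with a log2 CPM difference of -0.63, replicate 2 over replicate 1. CALD1 averaged 120.4 ± 37.0 CPM in the resistant line and 241 ± 7.69 CPM in the wild-type line (SD, n = 2 each), a log2 fold change of -0.998 ± 0.23 (SE) with an edgeR adjusted p of 0.0589, just short of the threshold of 0.05. It passed with DESeq2 (adjusted p = 0.00102) and with length offsets (0.0125). Without resistant replicate 1 its log2 fold change was -1.35, and without resistant replicate 2 it was -0.72. Such fits take their spread from the wild-type pair alone, so whether they pass decides nothing here. The adjusted p ranged up to 0.211 over the alternatives, and the sign was negative in all 16.

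MYL9, the regulatory light chain whose phosphorylation starts contraction, was the second gene of the set to fall. It had 93.5 and 96.0 TPM in the resistant libraries, against 252 and 266 TPM in the wild-type libraries. The groups did not overlap and replicates were close on this scale. MYL9 averaged 69.2 ± 10.8 CPM in the resistant line and 183 ± 5.74 CPM in the wild-type line (SD, n = 2 each), a log2 fold change of -1.40 ± 0.17 (SE, edgeR adjusted p = 0.0129). It stayed past the threshold in 15 of 16 alternatives, with fold changes from -1.60 to -1.25, the exception being the stricter threshold of 0.01. The light chains MYL12A and MYL12B, which serve nonmuscle myosin, did not pass (log2 fold changes -0.15 ± 0.18 and -0.05 ± 0.17 SE, edgeR adjusted p = 0.613 and 0.871). Without resistant replicate 2 their log2 fold changes were -0.37 and -0.24. MYL9 made up 9.48% and 9.06% of the TPM of these 3 light chains in the resistant libraries and 19.8% and 20.1% in the wild-type libraries. MYLK, the kinase that phosphorylates these light chains, named after its values were seen, stood at 104 ± 21.1 CPM in the resistant line and 254 ± 12.5 CPM in the wild-type line. It fell (log2 fold change -1.28 ± 0.18 SE, edgeR adjusted p = 0.0199), though not on the TPM scale (0.0675 to 0.144).

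**Figure D3:**
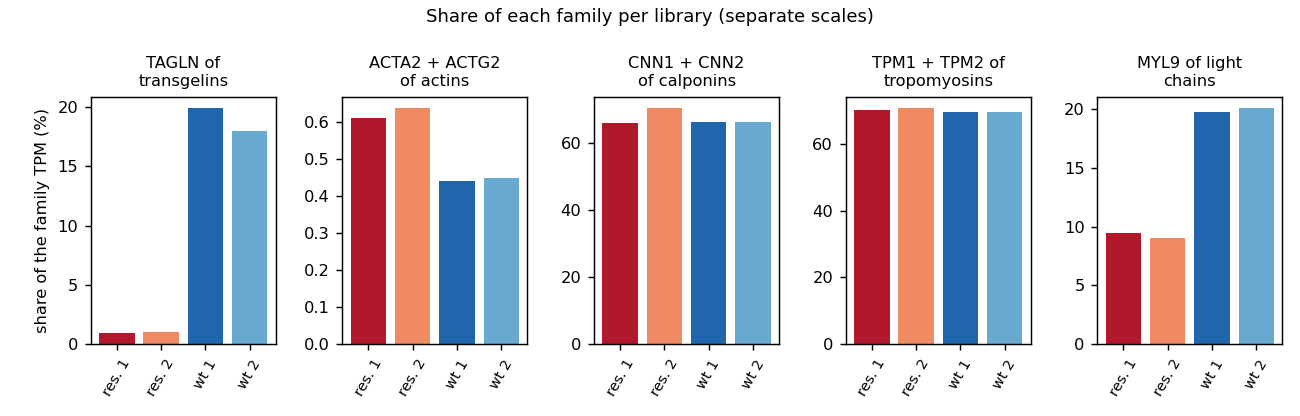
Percent of the summed TPM of each protein family held by the named genes, 1 bar per RNA library (res., resistant; wt, wild-type), each panel with its own axis from 0. TAGLN drops to 0.929% and 1.02% of transgelins in the resistant libraries, against 19.9% and 17.98% in the wild-type libraries, and MYL9 to 9.48% and 9.06% of light chains, against 19.8% and 20.1% in the wild-type libraries, while the tropomyosin panel stays between 69.5% and 70.6%.

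Of the 10 genes 8 were tested, and CNN1 and ACTG2 were below the count filter. Leaving aside TAGLN, which carries no test, MYL9 passed and was lower, and the other 6 tested genes did not pass. Among all tested genes 6.37% were called, 436 (3.41%) lower and 379 (2.96%) higher. The counts, non-overlaps and median of the 8 given below all include TAGLN. Nothing is read from them because the fall of TAGLN helped to choose the set. Scaling by library totals alone gave 373 lower and 531 higher. With edgeR 0 of the 8 were higher at the threshold, also 0 at an unadjusted p under 0.05, and 0 with DESeq2 and with limma-voom. Over all tested genes the shares called higher by these rules were 13.4% at the unadjusted p, 4.76% with DESeq2 and 2.4% with limma-voom. Without resistant replicate 1 there were 3 lower and 2 higher, and without resistant replicate 2 there were 6 lower and 0 higher. Calls over all tested genes also became more frequent in these settings, at 26.8% lower and 26.0% higher without resistant replicate 1 and 19.1% lower and 15.9% higher without resistant replicate 2. The median log2 fold change of the 8 was -0.20, against 0.02 over all tested genes. The groups did not overlap in 5 of the 8 with the resistant line lower and in 1 with it higher, against 29.7% and 30.9% of all tested genes. The resistant replicates lay further apart than the wild-type ones. Between the resistant libraries, replicate 2 over replicate 1, the 8 genes differed by -0.63 (CALD1) to 0.98 (TAGLN) on the log2 scale, against a median absolute difference of 0.33 over all tested genes. Between the wild-type libraries they differed by -0.16 (CNN2) to 0.07 (CALD1), against 0.10 over all.

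Beyond these genes the smooth-muscle contractile apparatus was examined in a list of 25 genes, of which 17 were tested, 6 fell, 1 rose and 10 did not pass. The median log2 fold change of the list was -0.56, and 3.41% of all tested genes were called lower and 2.96% higher. Without resistant replicate 1 there were 10 lower and 3 higher, beside 26.8% and 26.0% of all genes. Without resistant replicate 2 there were 12 lower and 2 higher, beside 19.1% and 15.9%. Without wild-type replicate 1 there were 6 lower and 0 higher, beside 2.05% and 1.17%, and without wild-type replicate 2 there were 4 lower and 0 higher, beside 2.0% and 1.07%. The other family members of the 10 genes, 8 tested of 10, had a median of -0.01, with ACTG1 lower and 0 higher. At an unadjusted edgeR p under 0.05 there were 2 lower and 1 higher, beside 13.6% and 13.4% of all genes. DESeq2 called 1 lower and 0 higher (5.76% and 4.76% of all), and limma-voom 0 and 0 (3.27% and 2.4%). CSRP1, a LIM-domain protein of the actin cytoskeleton, stood at 21.2 ± 1.34 CPM in the resistant line and 101 ± 1.76 CPM in the wild-type line (log2 fold change -2.25 ± 0.15 SE, edgeR adjusted p = 0.00262). MCAM, the adhesion molecule CD146 of vessel walls, stood at 22.5 ± 0.468 CPM in the resistant line and 101 ± 1.35 CPM in the wild-type line (log2 fold change -2.17 ± 0.15 SE, adjusted p = 0.00262). CRYAB, a small heat-shock protein that binds desmin and actin, stood at 40.7 ± 5.51 CPM in the resistant line and 126 ± 6.65 CPM in the wild-type line (log2 fold change -1.62 ± 0.16 SE, adjusted p = 0.00895). These genes are also expressed outside muscle. TGFB1I1 (Hic-5), a focal adhesion adaptor, rose to 75.2 ± 6.89 CPM in the resistant line, against 37.4 ± 2.45 CPM in the wild-type line (log2 fold change 1.01 ± 0.16 SE, adjusted p = 0.0242). Leaving out wild-type replicate 1 (adjusted p = 0.188) or 2 (0.314) ended the call. PPP1R14A, an inhibitor of myosin phosphatase, and NEXN, an actin-binding protein, also fell. Their log2 fold changes were -2.96 ± 0.53 and -1.48 ± 0.31 (SE, edgeR adjusted p = 0.0311 and 0.0492). With MYLK they complete the 6, all 3 named after their values were seen. Without wild-type replicate 2 the calls of PPP1R14A (adjusted p = 0.112) and NEXN (0.0693) ended, and that of NEXN ended also without wild-type replicate 1 (0.248). PPP1R14A was past the threshold in 11 of 14 alternatives and NEXN in 7 of 16, where library totals (0.0579), limma-voom (0.0516) and the TPM settings (0.108 to 0.167) were among those that ended its call.

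SRF, its MRTF coactivators and textbook targets formed a list of 30 genes, of which 29 were tested. With edgeR 3 fell, 0 rose and 26 did not pass, where 3.41% of all tested genes were lower and 2.96% higher. At an unadjusted p under 0.05 there were 12 lower and 1 higher, beside 13.6% and 13.4% of all genes. DESeq2 called 7 lower and 0 higher, beside 5.76% and 4.76%, and limma-voom 2 lower and 0 higher, beside 3.27% and 2.4%. The median log2 fold change was -0.30. The factors themselves, named after their values were seen, did not pass. SRF stood at 57.0 ± 0.691 CPM in the resistant line and 64.1 ± 2.20 CPM in the wild-type line (log2 fold change -0.17 ± 0.14 SE, edgeR adjusted p = 0.481). The coactivator genes MKL1 and MKL2, as the tables call MRTFA and MRTFB, had log2 fold changes of -0.09 ± 0.15 and 0.08 ± 0.30 (SE, adjusted p = 0.733 and 0.879). The 3 that fell were THBS1, FILIP1L and ACTG1. THBS1, the matrix protein thrombospondin, stood at 174 ± 8.30 CPM in the resistant line and 540.5 ± 23.1 CPM in the wild-type line (log2 fold change -1.64 ± 0.14 SE, adjusted p = 0.00578). FILIP1L, a relative of the filamin-binding protein FILIP1, stood at 8.22 ± 2.18 CPM in the resistant line and 25.5 ± 3.90 CPM in the wild-type line (log2 fold change -1.62 ± 0.25 SE, adjusted p = 0.0239; 0.057 to 0.124 on the TPM scale). Without resistant replicate 1 there were 15 lower and 5 higher in this list, where 26.8% and 26.0% of all genes were called. Without resistant replicate 2 there were 14 lower and 4 higher, where 19.1% and 15.9% of all genes were called.

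**Figure D4:**
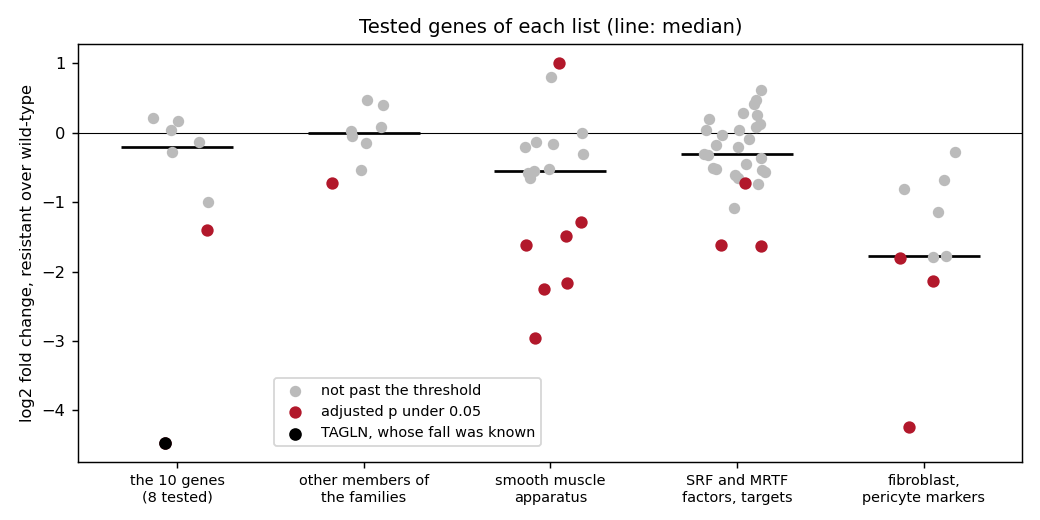
Log2 fold change of the resistant over the wild-type line for the tested genes of 5 lists, 1 point per gene, with the median of each list as a line (red, adjusted p under 0.05 with edgeR; grey, not past it; black, TAGLN). Points lie mostly below 0 in the apparatus list, with a median of -0.56, and in the fibroblast and pericyte list, with a median of -1.78, and near 0 in the other family members, with a median of -0.01.

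Fibroblasts and pericytes are cells in which TAGLN, ACTA2 and MYL9 are also high. The list of 17 markers of these cells includes MYH11 and DES, given above as smooth-muscle markers and too low to test. Of the 17 markers 9 were tested, of which 3 fell with edgeR, 0 rose and 6 did not pass. The part of such cells in the values of TAGLN and MYL9 was not tested. Over all tested genes 3.41% fell and 2.96% rose. At an unadjusted p under 0.05 the counts were 8 lower and 0 higher (13.6% and 13.4% of all genes), with DESeq2 6 lower and 0 higher (5.76% and 4.76%), and with limma-voom 3 lower and 0 higher (3.27% and 2.4%). Their summed level was low in every library, at 27.2 and 24.2 TPM in the resistant libraries and 58.6 and 62.9 TPM in the wild-type libraries. DCN, a matrix proteoglycan, stood at 0.634 ± 0.567 CPM in the resistant line and 12.6 ± 0.922 CPM in the wild-type line (log2 fold change -4.24 ± 0.51 SE, edgeR adjusted p = 0.0129). RGS5, a pericyte signalling regulator, stood at 5.68 ± 0.0132 CPM in the resistant line and 19.9 ± 0.212 CPM in the wild-type line (log2 fold change -1.81 ± 0.20 SE, adjusted p = 0.0103). ABCC9, a potassium channel subunit, had a log2 fold change of -2.13 ± 0.29 (SE, adjusted p = 0.017). On the TPM scale the calls of ABCC9 (0.0719 to 0.0927), DCN (up to 0.0977) and RGS5 (up to 0.115) ended in at least 1 setting. Of the 17 markers 7 and 5 stood at 1 TPM or more in the resistant libraries and 8 and 8 in the wild-type libraries, while 5 and 4 were at 0 in the resistant libraries and 5 and 6 in the wild-type libraries. FAP was at 0 in all 4 libraries, and KCNJ8, a potassium channel of pericytes that did not pass the test (edgeR adjusted p = 0.0777), had 9.44 and 10.7 TPM in the resistant libraries and 19.7 and 19.3 TPM in the wild-type libraries. Both were named after their values were seen.

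The 3 tested genes outside the set whose log2 CPM profile lay nearest to that of TAGLN over the 4 RNA libraries were KRT19, CLSTN2 and ZPLD1. The measure was the root mean square distance after centring on the wild-type mean, at 0.18, 0.35 and 0.36. KRT19, a keratin of simple epithelia, had 4.89 and 9.13 TPM in the resistant libraries and 188 and 176 TPM in the wild-type libraries. CLSTN2, a calsyntenin, had 2.36 and 2.70 TPM in the resistant libraries and 42.9 and 41.1 TPM in the wild-type libraries. ZPLD1, a zona pellucida domain protein, had 0.21 and 0.20 TPM in the resistant libraries and 7.37 and 6.84 TPM in the wild-type libraries. All 3 were low in both resistant libraries, and a match over 4 libraries rests almost wholly on that step.

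On chromosome 11 the 2 neighbours of TAGLN on each side were tested. In gene order these are PAFAH1B2 and SIDT2 on one side and PCSK7 and RNF214 on the other. With edgeR 0 of these 4 passed, where 3.41% of all tested genes were lower and 2.96% higher. At an unadjusted p under 0.05 there were 2 lower and 0 higher, beside 13.6% and 13.4% of all genes. DESeq2 called 0 (5.76% of all genes lower and 4.76% higher), as did limma-voom (3.27% and 2.4%). An uncharacterised lncRNA that overlaps TAGLN was not analysed here. PCSK7, a proprotein convertase whose gene overlaps TAGLN, stood at 41.3 ± 6.74 CPM in the resistant line and 63.2 ± 5.28 CPM in the wild-type line (log2 fold change -0.61 ± 0.18 SE, edgeR adjusted p = 0.101). SIDT2, a lysosomal membrane protein, and PAFAH1B2, a phospholipase subunit, had log2 fold changes of -0.40 ± 0.20 and -0.38 ± 0.14 (SE, adjusted p = 0.263 and 0.159). RNF214 had -0.07 ± 0.21 (SE, adjusted p = 0.845). Over the 16 alternatives the log2 fold change ran from -0.80 to -0.42 for PCSK7 and from -0.64 to -0.20 for SIDT2. It ran from -0.45 to -0.24 for PAFAH1B2 and from -0.27 to 0.09 for RNF214. Whether the counting used strand is not given in the sources used here, so reads in the overlap of TAGLN and PCSK7 may be shared.

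H3K27ac peaks were taken from a 60 kb window around TAGLN on hg19 chromosome 11. PCSK7 overlaps TAGLN, so a peak in the window need not belong to TAGLN, and no peak was assigned to a gene. The resistant lists held 1 peak each, and the wild-type lists held 1 and 3. All peaks fell into 3 merged regions. The first, chr11:117048890-117050634, had a peak in all 4 lists, as did 21.97% of all 89076 merged regions. Its authors' peak scores, whose meaning is not given, were 12.5 and 16.7 in the resistant lists and 20.7 and 12.4 in the wild-type lists, so the lines overlapped. Its peaks were 1246 and 1723 bp long in the resistant lists and 569 and 760 bp long in the wild-type lists, without overlap. Of the 19572 regions with a peak in all 4 lists, 14.3% were likewise covered more widely by both resistant lists than by both wild-type lists, and 12.2% less widely. The ratio of mean covered length, resistant over wild-type, was 2.23 here, above 96.6% of those regions, whose median ratio was 0.988.

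The second region, chr11:117069111-117069686, and the third, chr11:117077034-117077771, had a peak in wild-type replicate 2 alone. Their scores were 7.16 and 3.15, higher than 56.6% and 12.02% of the peaks of that list. Neither was called in wild-type replicate 1, so by the rule that both libraries of a line must have a peak the window held 0 lost and 0 gained regions. Over all merged regions 3.92% were lost and 3.43% gained, and 17.3% had a peak in wild-type replicate 2 alone. Without wild-type replicate 1 both regions would count as lost, and without wild-type replicate 2 neither would be in the lists. With 2 lists per line no permutation test can go below a p of 0.333, and none was run. The annotation at hand is of GRCh38, so distances from these hg19 peaks to the start of TAGLN are not given. The other 9 genes were not placed on the peak lists for the same reason.

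**Figure D5:**
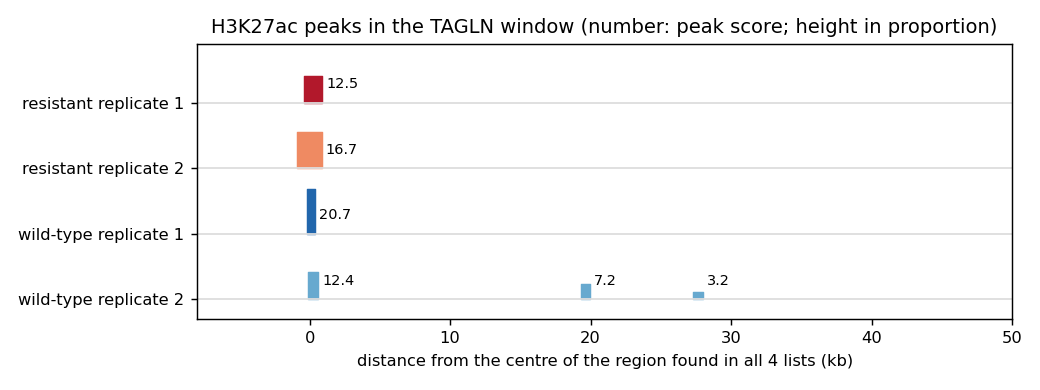
H3K27ac peaks of each list in the window, placed by distance in kb from the centre of the region found in all 4 lists, with bar height in proportion to the peak score printed beside it. The bar at 0 is wider in the resistant lists, at 1246 and 1723 bp, than in the wild-type lists, at 569 and 760 bp. The bars scored 7.16 and 3.15 are in wild-type replicate 2 alone. No peak is assigned to a gene.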

How the data were processed

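RNA and H3K27ac libraries of both lines were used, grouped by title. Input libraries (4) were not analysed here. The deposited tables give RSEM estimated counts and TPM per gene symbol, and the authors' peak lists give a position and a score per peak for each library. Tools listed in the submitters' processing notes are STAR, RSEM and DESeq2 (1.40.2), with GRCh38 and hg19 as builds and no role for any. Peak caller and input use: not given in the sources used here. Peaks on chromosome 1 end at up to 249240417, past its end in GRCh38, and were read as hg19.

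Rounding was applied to the estimated counts (3.16% held fractions). Genes kept by filterByExpr (12792) were scaled by TMM and tested with edgeR 4.0.16 (R 4.3.3), in a quasi-likelihood model with a single term for line, with Benjamini-Hochberg adjustment over all genes at 0.05. SE is the coefficient over the root of F. Peaks overlapping by 1 bp were merged (Python 3.11.15, pandas 2.3.3). Fits were also run on counts simulated from the edgeR fit, with the same spread in both lines, unlike the data. No result here rests on that run. Alternatives used DESeq2 1.42.0 and limma 3.58.1. Counting error is largest for genes with few reads, which are given above for TAGLN, CNN1 and ACTG2. In the resistant libraries PPP1R14A had 3 and 5 counts, DCN 16 and 3, ZPLD1 8 and 8, and NEXN 52 and 29. LHX1 had 7 and 5 in the wild-type libraries.

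The 10 genes and all lists were chosen with earlier results of these data known. Named genes were the 10, up to 3 called rises and 3 called falls per list at a mean log2 CPM of 2 or more, 2 neighbours of TAGLN on each side and the 3 nearest profiles.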

Additional observations from a re-analysis of the deposited data

How the results depend on the processing

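Of 377 recomputed values 280 stayed on the same side of the threshold, or within 1.5 times or 1 SD, with the same sign. TAGLN kept its sign in every alternative run, at log2 fold changes from -5.10 to -4.01, and MYL9 and CALD1 kept theirs. TPM2 turned to -0.0370 with log2(TPM + 1), with or without a filter, -0.0371 with log2(TPM + 0.1), -0.14 with length offsets and, over left-out libraries, spanned -0.19 to 0.24. The cause was not tested. Leaving TAGLN aside, TAGLN2, MYL9 and CALD1 were called lower with length offsets, where 1013 of 11438 tested genes were lower. At a threshold of 0.01 MYL9 no longer passed, where 73 of 12792 tested genes were lower.

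All genes called numbered 609 higher and 737 lower of 12792 tested with DESeq2, and 24 and 73 of 12792 at 0.01. With log2(TPM + 1) they were 243 and 282 of 12172, and with log2(TPM + 0.1) 217 and 243 of 12172. With no TPM filter they were 41 and 98 of 16067, and with length offsets 916 and 1013 of 11438. A mean log2 CPM of 2 gave 292 and 317 of 11067, and limma-voom 307 and 418 of 12792. The list counts below belong beside these totals, which moved with the setting, and nothing is read from them. Leaving out a library gave 141 to 3374 higher and 264 to 3479 lower. Requiring a mean log2 CPM of 2, limma-voom, the 3 TPM settings and the 0.01 threshold left 0 of the other family members lower, and length offsets gave 1 higher and 3 lower. Leaving out a library gave 0 to 1 higher and 0 to 4 lower. For the apparatus list 2 were higher with DESeq2 and with length offsets. With no TPM filter 0 were higher and 2 lower, at 0.01 0 and 3, and without a library 0 to 3 and 4 to 12. For the SRF list 7 were lower with DESeq2, 1 on each TPM setting and at 0.01, and 9 with length offsets beside 2 higher. Without a library 0 to 5 were higher and 2 to 15 lower.

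The replicate block gave 860 genes higher and 1020 lower, 2 higher in the apparatus list and 6 lower in the SRF list, and CALD1 passed with it (adjusted p = 0.00036). The labels give no pairing beyond a number: deviations of same-numbered libraries correlated at -0.0464. The replicate block changed no other call among the 10 genes.

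With estimated counts in place of TPM the shares in the resistant and wild-type lines were 0.747% and 12.3% for TAGLN, 0.561% and 0.44% for ACTA2 and ACTG2, 71.6% and 69.7% for CNN1 and CNN2, and 63.0% and 61.5% for TPM1 and TPM2. That of MYL9 was 20.4% in the wild-type line. For peaks, counting only peaks that cover 50% of a region made the first region gained (1 gained). A window 10 kb wider held 2 and 3 peaks in the resistant lists, 2 and 4 in the wild-type lists, and 5 merged regions. Leaving out a list gave 1 to 3 merged regions and 0 to 2 lost. With 1 library left in a line, that library is assumed to vary like the other line's pair. Depth limits CNN1 and ACTG2, and in the resistant line TAGLN.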
